A study of Mus musculus with 25 samples.

Results

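Early-weaned mouse pups given 2 human milk oligosaccharides together were compared with early-weaned pups given 2'-FL alone, by RNA sequencing of the jejunum, across all genes. The comparison holds 10 of the 25 libraries in the series, 5 in each group, and the members were taken from the labels and not from any measured value. The EW+HMOs group was weaned early and received 2'-FL plus LNnT. The EW+2'-FL group was weaned early and received 2'-FL without LNnT. Early weaning was at postnatal day 15 in both groups, and LNnT is the sugar that only the EW+HMOs group received. Whether both groups received the same amount of 2'-FL is not given. The remaining libraries come from EW+LNnT pups, EW pups given no oligosaccharide, and suckling Control pups killed at postnatal day 21, again with 5 libraries in each group. The labels give no dose, mouse strain, sex or litter, and no day of sampling for the weaned groups, so the age of these pups relative to the Control pups is not known here. They do not say whether each library is 1 pup, so p-values measure the spread between these libraries.

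2'-FL (2'-fucosyllactose) is lactose carrying a fucose, and LNnT (lacto-N-neotetraose) is lactose extended by N-acetylglucosamine and galactose without fucose. Both are abundant in human milk, and neither is broken down to any great extent by the digestive enzymes of the small intestine. The jejunal enterocyte digests sugars and peptides at its brush border, absorbs fat, and makes cholesterol when its sterol supply is low. In that state the transcription factor SREBP2 turns on the enzymes of the mevalonate pathway.

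The 5 EW+HMOs libraries held between 83185365 and 89325896 counts and the 5 EW+2'-FL libraries between 69132420 and 89454710. Levels are counts scaled to library size (CPM) after TMM scaling. In a principal component analysis of the 10 libraries, the second EW+2'-FL library (FL2) stood apart on the first component, with 31.8% of the variance, and the first (FL1) on the second component, with 28.6%. The 5 EW+HMOs libraries lay close together on both. The mean log2 CPM of the smooth muscle markers was 5.76 to 6.20 in EW+HMOs libraries, 5.68 to 6.32 in 4 EW+2'-FL libraries and 8.09 in FL2. FL5 alone carried pancreatic enzyme transcripts, at 0.49% of its counts. Y-linked transcripts were present in 3 of 5 EW+HMOs libraries and in 4 of 5 EW+2'-FL libraries, FL2 being the exception. In whole tissue, fewer cells of a type and less RNA per cell cannot be told apart.

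No gene passed the test between EW+HMOs and EW+2'-FL libraries. Of 22131 genes tested with edgeR's quasi-likelihood test, 0 (0%) reached an adjusted p under 0.05, and the smallest adjusted p was 0.13. At an unadjusted p under 0.05 there were 2369 genes, of which 894 (4.04% of all tested) had higher and 1475 (6.66%) had lower values in EW+HMOs libraries. The 5 libraries of one group lay wholly above or below those of the other for 207 genes higher (0.935%) and 184 genes lower (0.831%) in EW+HMOs. A positive log2 difference was found for 43.2% of all genes, and the median over all genes was -0.06. The count of 0 depended on the tool. DESeq2 called 169 genes, limma-voom with quality weights called 1, and limma on log2 FPKM called 0. It also depended on single libraries, with 15 genes called without FL5, 2 without HMOs3 and 1 without HMOs5. Without FL2, 672 genes were higher and 901 lower at an unadjusted p under 0.05. Without both FL1 and FL2, a setting added after the data were seen, 517 were higher and 524 lower. The larger number of lower than higher genes thus depended on these libraries. In the account of each gene list that follows, a member is counted at an unadjusted p under 0.05, and these counts stand against the shares of 4.04% higher and 6.66% lower over all genes. The plot of all genes shows where 4 of the lists lie.

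**Figure D1:**
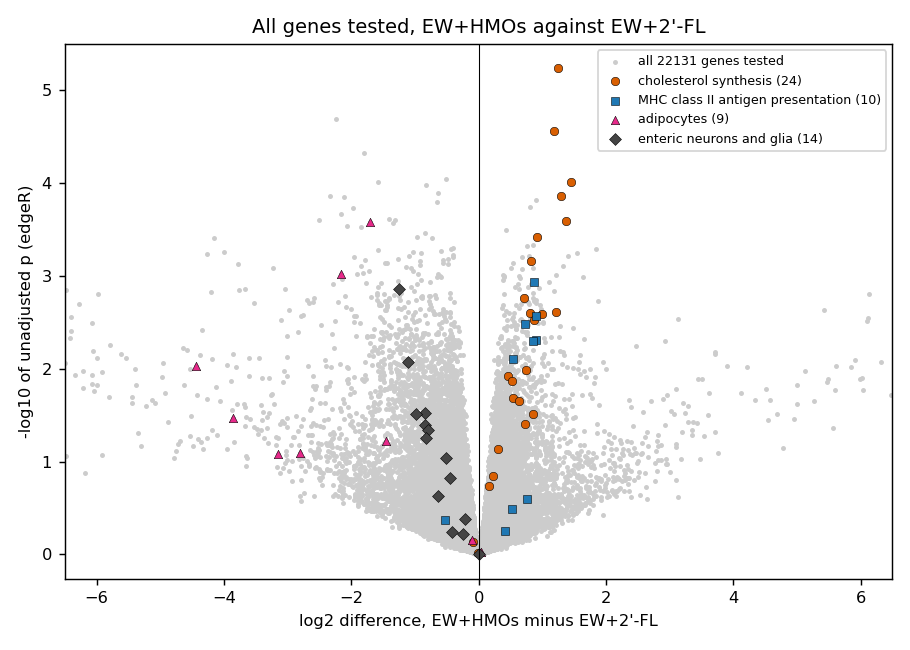
Each point is 1 gene; the x axis is the log2 difference EW+HMOs minus EW+2'-FL and the y axis is -log10 of the unadjusted edgeR p. Of 22131 genes, 46 lie beyond the x axis limits of 6.5 and are not drawn. Most cholesterol synthesis genes (orange circles) sit to the right and include the gene with the smallest p, and adipocyte genes (pink triangles) sit to the left.

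Most genes of the cholesterol list had higher values in EW+HMOs libraries. Of 24 genes tested, 19 were higher at an unadjusted p under 0.05 and 0 were lower, and 5 did not overlap between the groups. The median log2 difference over the list was 0.78, against -0.06 over all genes. Without FL1 and FL2 together, a setting added after the data were seen, the median was 0.43 and 12 genes were higher at that threshold. None of the 24 passed the edgeR test after adjustment over all genes, while DESeq2 called 7 of them, all higher. With the Y-linked level as a covariate, the median was 0.81 and 20 genes were higher at an unadjusted p under 0.05.

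Fdft1 encodes squalene synthase, the first enzyme committed to sterols. It was measured at 38.8, 42.1, 18.9, 53.8 and 41.5 CPM in the 5 EW+HMOs libraries, against 13.9, 10.2, 21.3, 14.7 and 21.9 CPM in the 5 EW+2'-FL libraries. The third EW+HMOs library (HMOs3) overlapped the EW+2'-FL values, and the other 4 stood above all of them. The log2 difference was 1.25 ± 0.22 (SE, edgeR adjusted p = 0.13), and Fdft1 was called without HMOs3 and without FL5. Insig1 encodes the membrane protein that holds back SREBP processing and is itself an SREBP target. Its values were 83.8, 105, 46.0, 93.9 and 61.9 CPM in EW+HMOs libraries, against 40.4, 15.6, 33.8, 42.1 and 40.4 CPM in EW+2'-FL libraries. The groups did not overlap, and the log2 difference was 1.18 ± 0.23 (SE, edgeR adjusted p = 0.15). It was called by edgeR without HMOs3.

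Hmgcs1, the synthase that makes HMG-CoA, was at 148, 169, 66.0, 156 and 133 CPM in EW+HMOs libraries and at 33.5, 30.1, 74.2, 59.2 and 75.9 CPM in EW+2'-FL libraries. HMOs3 again fell within the EW+2'-FL range, and the log2 difference was 1.30 ± 0.29 (SE, edgeR adjusted p = 0.23). Mvd, the decarboxylase that makes isopentenyl pyrophosphate, was at 13.9, 14.9, 6.45, 15.7 and 16.6 CPM in EW+HMOs libraries and between 6.20 and 9.88 CPM in EW+2'-FL libraries, a log2 difference of 0.82 ± 0.21 (SE). For Fdft1, Hmgcs1 and Mvd alike, HMOs3 was the one EW+HMOs library at EW+2'-FL levels. Sqle, squalene epoxidase, averaged 48.8 ± 15.0 CPM in EW+HMOs libraries and 21.0 ± 10.6 CPM in EW+2'-FL libraries (SD, n = 5 each). The log2 difference was 0.99 ± 0.30 (SE) for Cyp51, the lanosterol demethylase, 0.80 ± 0.24 for Lss, lanosterol synthase, and 0.71 ± 0.20 for Nsdhl, a sterol dehydrogenase whose groups did not overlap.

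Stard4, a cytosolic sterol carrier, did not share this pattern. It was at 143 to 171 CPM in EW+HMOs libraries and at 80.0 to 150 CPM in 4 EW+2'-FL libraries, with FL1 at 335 CPM, and its log2 difference was -0.10 ± 0.28 (SE).

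**Figure D2:**
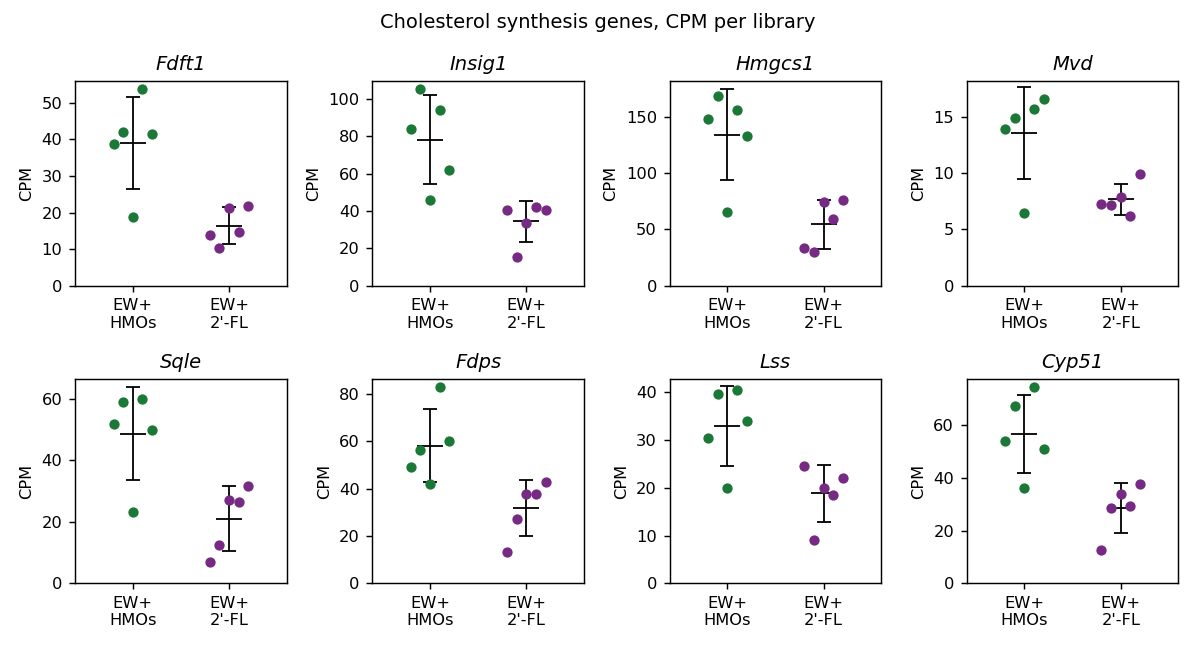
Each panel is 1 gene and each point 1 library in CPM, with EW+HMOs libraries (green) left of EW+2'-FL libraries (purple); black bars are the mean ± SD of 5 libraries. In each panel 4 EW+HMOs libraries lie above all EW+2'-FL libraries, and the lowest EW+HMOs library, HMOs3, lies among or just above them.

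Promoter sequence from RefSeq (GRCm38.p6) was available for 16 of the 24 genes, and the 250 bases before the start of Hmgcs1, Insig1 and Mvd are shown because these genes of the pathway differed together. Capitals mark TCACNCCAC, a form of the sterol element bound by SREBP, or the E-box CACGTG, searched on both strands. The stretches lie at chr13:119690101-119690350 on the plus strand (Hmgcs1), chr5:28071162-28071411 on the plus strand (Insig1) and chr8:122443423-122443672 on the minus strand (Mvd), each 5′ to 3′.
Hmgcs1: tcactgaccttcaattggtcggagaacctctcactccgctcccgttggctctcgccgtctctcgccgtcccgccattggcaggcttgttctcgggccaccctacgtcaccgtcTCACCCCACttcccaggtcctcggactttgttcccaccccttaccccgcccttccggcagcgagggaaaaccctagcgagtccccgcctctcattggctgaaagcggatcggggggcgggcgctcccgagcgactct
Insig1: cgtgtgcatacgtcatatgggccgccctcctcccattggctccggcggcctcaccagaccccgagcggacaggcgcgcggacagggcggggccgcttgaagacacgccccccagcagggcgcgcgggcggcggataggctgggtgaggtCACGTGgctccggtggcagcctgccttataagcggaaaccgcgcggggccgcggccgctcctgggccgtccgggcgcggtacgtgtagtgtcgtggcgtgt
Mvd: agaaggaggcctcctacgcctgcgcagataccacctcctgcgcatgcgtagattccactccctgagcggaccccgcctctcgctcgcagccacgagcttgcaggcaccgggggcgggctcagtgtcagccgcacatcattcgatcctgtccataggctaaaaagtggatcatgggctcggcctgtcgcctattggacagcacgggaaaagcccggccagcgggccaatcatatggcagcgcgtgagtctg
Hmgcs1 held the sterol element, found in 1.05% of the 32851 promoters of this length, and was the only one of the 16 genes to do so. Insig1 held the E-box, found in 6.02% of promoters and in 4 of the 16 genes. The promoter of Mvd held neither set of letters, although its levels differed in the same direction as those of Hmgcs1.

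LNnT distinguishes the groups of another pair too, EW+LNnT and EW, which shares no library with this one. LNnT1 and LNnT2 stood apart from the other EW+LNnT libraries on the first component of all 25, at -107 and -91.6 against 20.9 to 21.4, and FL1 lay at -78.2. Pancreatic transcripts took 1.43% of the counts of LNnT1 and 0.448% of those of LNnT2. Mitochondrial transcripts took 9.27% of the counts of FL1, 8.98% of those of LNnT1 and 9.57% of those of LNnT2. In the other libraries they took 5.46% to 7.93%, and the part of this in the differences below was not tested. The cholesterol genes differed between EW+LNnT and EW in the opposite direction. Their median log2 difference was 0.78 for EW+HMOs minus EW+2'-FL and -0.82 for EW+LNnT minus EW, where 21 of 24 were negative. Without LNnT1 and LNnT2, a setting added after the data were seen, the second median was -0.68 and 21 were again negative. The test of the difference between the pairs subtracts the second log2 difference from the first, and a positive value means that the difference with LNnT was higher where 2'-FL was also given. Over all genes, 57 (0.258%) passed it with a positive and 130 (0.587%) with a negative value at an edgeR adjusted p under 0.05. Of the 24 cholesterol genes 15 passed, all with positive values, and without LNnT1 and LNnT2 12 passed with positive values, of 235 genes in all. The value was 2.72 for Fdft1 (edgeR adjusted p = 0.0001), 2.60 for Hmgcs1, 2.83 for Sqle and 2.27 for Insig1. Fdft1 averaged 39.0 CPM in EW+HMOs libraries and 16.4 CPM in EW+2'-FL libraries, and 11.9 CPM in EW+LNnT libraries and 33.1 CPM in EW libraries.

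The mean log2 CPM over the 24 genes was 5.16 to 5.85 in EW+HMOs libraries, 4.34 to 5.16 in EW+2'-FL libraries, 4.07 to 4.86 in EW+LNnT libraries, 5.13 to 5.60 in EW libraries and 4.39 to 4.64 in Control libraries. The EW+HMOs and EW libraries thus covered a similar range, and the EW+2'-FL, EW+LNnT and Control libraries lay at 5.16 or lower. The number of genes past the test between the pairs moved with single libraries and ran from 55 to 340 when 1 library was left out, with 55 without EW4 and 340 without FL2. It was 107 or fewer without FL1, without LNnT1, without any one EW+HMOs library and without any one of EW2 to EW5, and 324 without FL5.

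**Figure D3:**
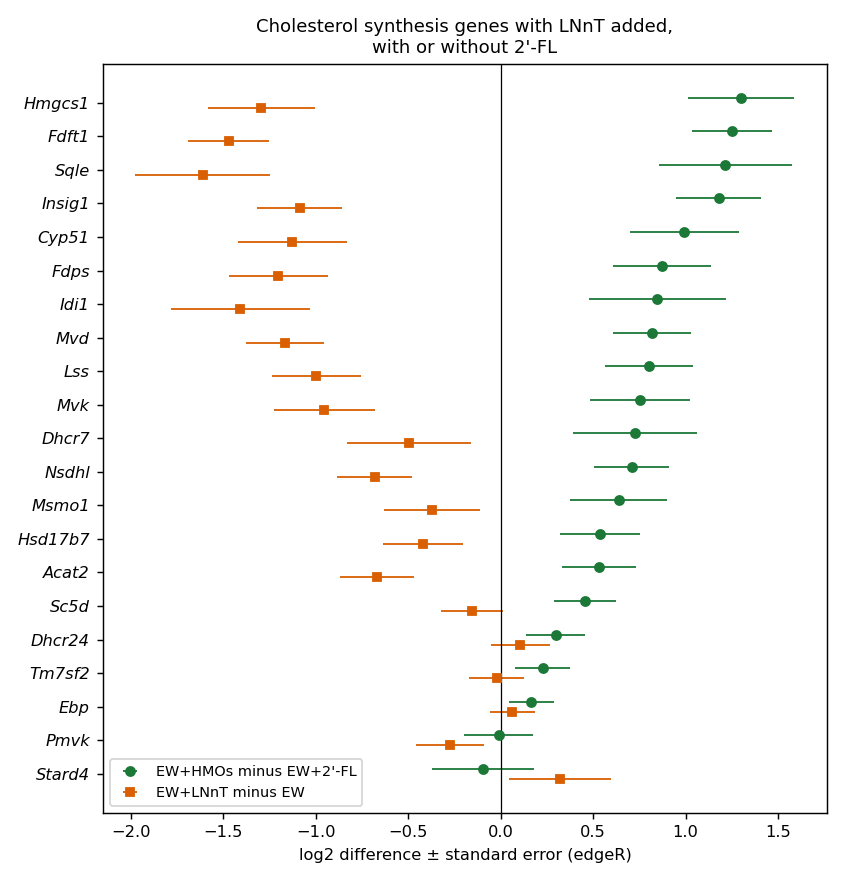
For each of 21 cholesterol genes, points give the edgeR log2 difference, with bars of ± SE derived from the F statistic of the test. Green circles are EW+HMOs minus EW+2'-FL and orange squares are EW+LNnT minus EW. The green points lie right of 0 for 19 of the 21 genes drawn and the orange points left of 0 for 18.

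The genes that changed with LNnT alone were followed into the EW+HMOs and EW+2'-FL libraries. EW+LNnT against EW gave 38 genes (0.172%) at an edgeR adjusted p under 0.05, 26 of them higher and 12 lower in EW+LNnT. The 12 lower included Fdft1, Insig1 and Mvd of the cholesterol list, so the counts that follow partly repeat the cholesterol result. Of the 26 higher in EW+LNnT, 24 had a negative log2 difference for EW+HMOs minus EW+2'-FL, and of the 12 lower, 10 had a positive one. The sign was therefore opposite for 34 of 38 genes, or 89.5%, against 54.5% of all 22131 genes. With the 38 genes and their EW+LNnT signs held fixed, 33 to 36 were opposite in every alternative setting that fitted both pairs. Many of those settings left the EW+HMOs and EW+2'-FL libraries unchanged. That range therefore does not test the EW+LNnT side. The list of 38 itself depended on single libraries. It numbered 94 without LNnT1 and LNnT2, of which 24 were among the 38, and 78 of the 94 had the opposite sign, against 48.5% of all genes in that fit. With 1 EW+LNnT library left out it numbered 10 to 164, and with 1 EW library left out 5 to 21. Clk4, a kinase that phosphorylates splicing factors, was among the 38. It was at 47.0, 49.7, 52.6, 59.7 and 60.4 CPM in EW+HMOs libraries and at 89.9, 84.7, 67.1, 77.2 and 58.4 CPM in EW+2'-FL libraries, a log2 difference of -0.49 ± 0.12 (SE, edgeR adjusted p = 0.25), against 0.68 for EW+LNnT minus EW. Rab40c, a small GTPase that acts in a ubiquitin ligase, was at 18.1 to 27.7 CPM in EW+HMOs libraries and at 28.3 to 45.0 CPM in EW+2'-FL libraries, without overlap. Its log2 difference was -0.55 ± 0.14 (SE), against 0.73 for EW+LNnT minus EW.

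Lipid genes outside the sterol pathway differed in direction from list to list. Of 14 fatty acid synthesis genes, 0 had higher and 3 had lower values in EW+HMOs libraries at an unadjusted p under 0.05, with a median log2 difference of -0.04. Scd1, the stearoyl-CoA desaturase, was at 1.63, 1.53, 2.27, 1.44 and 4.90 CPM in EW+HMOs libraries and at 5.54, 33.7, 167, 18.4 and 1.82 CPM in EW+2'-FL libraries. FL3 alone held most of the RNA. The mean log2 CPM of the adipocyte markers described below was also highest in FL3, at 4.08, against 3.18 in FL2. Of these markers Fabp4 and Plin4 were highest in FL2, and the part of adipocytes in the Scd1 value was not tested. Of 22 genes of fatty acid oxidation and PPARA targets, 3 were higher and 2 lower at that threshold, with a median of 0.11. Of 16 genes of fat absorption, 12 had positive and 4 negative log2 differences, and 5 were higher and 1 lower at that threshold. Their median was 0.23, and 0.14 without FL2. Npc1l1, the cholesterol importer of the brush border, was at 863, 784, 970, 854 and 735 CPM in EW+HMOs libraries and at 412, 292, 497, 849 and 736 CPM in EW+2'-FL libraries. FL1, FL2 and FL3 were low and FL4 and FL5 lay within the EW+HMOs range, and the log2 difference was 0.59 ± 0.23 (SE, edgeR adjusted p = 0.35). The fatty acid transporter Slc27a4 and the monoacylglycerol acyltransferase Mogat2 had log2 differences of 0.50 ± 0.20 and 0.42 ± 0.17 (SE).

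Brush-border digestion and nutrient transport followed that same division among the EW+2'-FL libraries. All 4 disaccharidases had positive log2 differences, with a median of 0.53, and 2 of 4 were higher in EW+HMOs at an unadjusted p under 0.05. Lct, lactase, was at 2460, 2690, 3250, 2310 and 2200 CPM in EW+HMOs libraries and at 427, 803, 1890, 2470 and 2120 CPM in EW+2'-FL libraries. Its log2 difference was 0.74 ± 0.35 (SE, edgeR adjusted p = 0.46). Sis, sucrase-isomaltase, was at 8510, 8280, 8800, 7480 and 6830 CPM in EW+HMOs libraries and at 4890, 1950, 5290, 7900 and 8070 CPM in EW+2'-FL libraries, a log2 difference of 0.51 ± 0.29 (SE). For both enzymes the groups overlapped. FL4 and FL5 lay within the EW+HMOs range for Sis, while for Lct FL4 lay within it and FL5 just below it. Treh, trehalase, had a log2 difference of 0.39 ± 0.15 (SE). Without FL2 the median of the disaccharidases was 0.30.

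Of 14 brush-border peptidases tested all had positive log2 differences, with a median of 0.49, and 5 were higher in EW+HMOs at an unadjusted p under 0.05. They included Ggt1, the gamma-glutamyl transferase, with 728 ± 69.4 CPM in EW+HMOs libraries and 486 ± 200 CPM in EW+2'-FL libraries (SD, n = 5 each). Mep1b, a meprin subunit, and Dpp4, a dipeptidyl peptidase, had log2 differences of 0.71 ± 0.28 and 0.70 ± 0.29 (SE). Of 18 sugar, amino acid and vitamin transporters 9 were higher, with a median of 0.45. Slc5a1, the sodium-glucose cotransporter, was at 5910, 6640, 6930, 5700 and 5760 CPM in EW+HMOs libraries and at 4230, 1550, 3810, 6170 and 5500 CPM in EW+2'-FL libraries. Slc19a3, a thiamine transporter, was at 22.4 to 37.7 CPM in EW+HMOs libraries, and its EW+2'-FL values of 6.28, 6.32, 13.0, 27.7 and 27.8 CPM showed the same split. None of these genes passed the edgeR test.

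Enterocyte identity genes mostly had positive log2 differences. Of 13 tested, 10 were positive and 3 negative, and 3 were higher at an unadjusted p under 0.05. The median was 0.22, which was 0.10 without FL2 and 0.36 without FL1. Krt20, a keratin of mature villus cells, had the largest difference of the list. It was at 2190, 1680, 2090, 1720 and 1430 CPM in EW+HMOs libraries and at 393, 413, 790, 1830 and 1260 CPM in EW+2'-FL libraries. Vil1, villin of the microvillus core, averaged 3158 ± 315 CPM in EW+HMOs libraries and 2052 ± 967 CPM in EW+2'-FL libraries (SD, n = 5 each). Among 16 cytochrome P450 genes of families 2 and 3, which oxidise drugs and dietary compounds, 6 were higher and 0 lower, with a median of 0.37. Cyp2c66 averaged 81.6 ± 28.9 CPM in EW+HMOs libraries and 40.9 ± 23.3 CPM in EW+2'-FL libraries (SD, n = 5 each). Its EW+2'-FL values of 42.5, 7.05, 50.0, 34.0 and 70.8 CPM did not show the split of the brush-border genes. Without FL1 and FL2 the list medians were 0.16 for P450 genes, 0.22 for disaccharidases, 0.22 for peptidases and 0.26 for transporters.

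**Figure D4:**
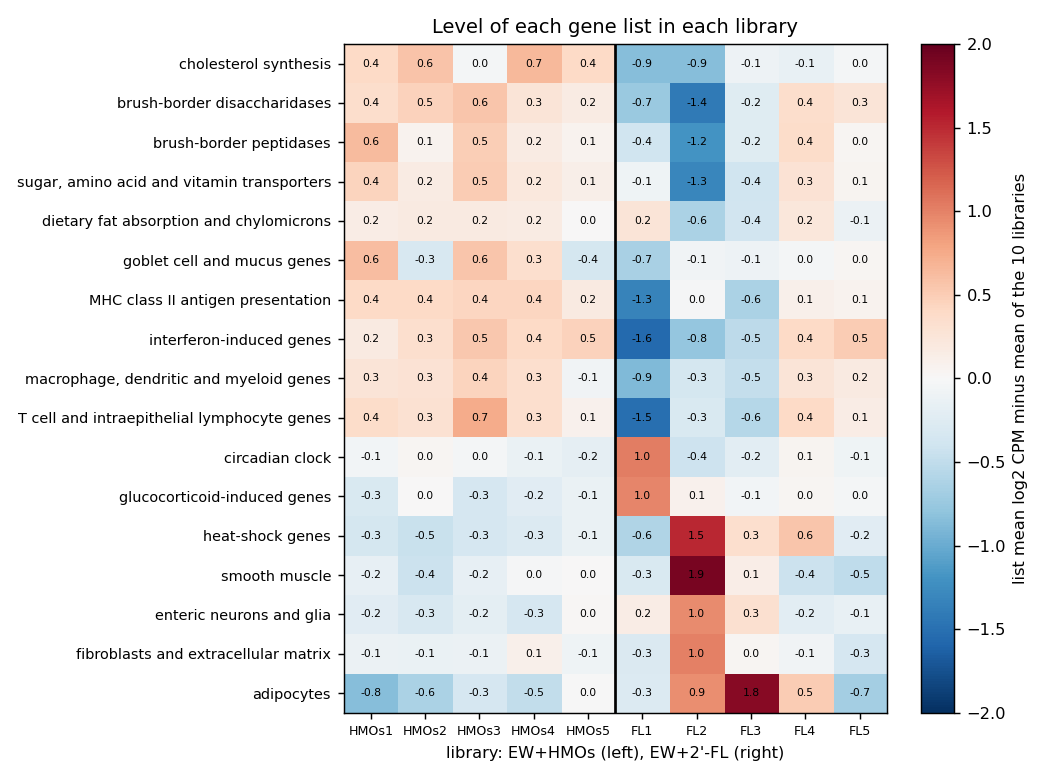
Each row is a gene list and each column 1 library, with EW+HMOs libraries left of the black line and EW+2'-FL libraries right of it; colour and number give the mean log2 CPM of the list minus its mean over the 10 libraries. FL1 is low for immune lists and high for clock and glucocorticoid lists, FL2 is low for brush-border lists and high for muscle and heat-shock lists, and FL3 is highest for adipocyte genes.

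Mucus genes were more variable in the EW+HMOs libraries. Of 14 goblet cell genes 4 were higher in EW+HMOs at an unadjusted p under 0.05, with a median of 0.31, and of 0.16 without HMOs3. Muc2, the gel-forming mucin, was at 1010, 271, 874, 583 and 239 CPM in EW+HMOs libraries and at 210, 273, 408, 399 and 336 CPM in EW+2'-FL libraries. HMOs1, HMOs3 and HMOs4 stood above all EW+2'-FL libraries and HMOs2 and HMOs5 did not, and the log2 difference was 0.87 ± 0.42 (SE, edgeR adjusted p = 0.47). Clca1, a goblet cell secretory protein, was at 688, 260, 694, 374 and 149 CPM in EW+HMOs libraries and at 35.8 to 272 CPM in EW+2'-FL libraries, with the same 3 libraries on top. Fcgbp, a mucin-binding protein, averaged 1872 ± 1040 CPM in EW+HMOs libraries and 1097 ± 114 CPM in EW+2'-FL libraries (SD, n = 5 each). Of 15 Paneth cell genes none was counted in either direction, and the median was -0.31, which was 0.097 without FL2. Reg3g, an antimicrobial lectin, was at 2810, 1150, 1570, 2400 and 1080 CPM in EW+HMOs libraries and at 1590, 1810, 216, 2410 and 2280 CPM in EW+2'-FL libraries, a log2 difference of 0.12 ± 0.60 (SE).

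Junction genes had log2 differences of both signs, 12 positive and 13 negative, between -0.72 and 0.76. Of these 25 tight and adherens junction genes 0 were higher and 4 lower in EW+HMOs at an unadjusted p under 0.05, with a median of -0.01. Cldn3, a sealing claudin, was at 142, 119, 158, 147 and 131 CPM in EW+HMOs libraries and at 179, 233, 193, 198 and 141 CPM in EW+2'-FL libraries. FL5 lay within the EW+HMOs range, and the log2 difference was -0.44 ± 0.16 (SE, edgeR adjusted p = 0.32). Cldn2, a pore-forming claudin, averaged 137 ± 24.4 CPM in EW+HMOs libraries and 172 ± 8.89 CPM in EW+2'-FL libraries (SD, n = 5 each). Ocln, occludin, was at 80.7 to 88.0 CPM in EW+HMOs libraries and at 82.3 to 110 CPM in 4 EW+2'-FL libraries, with FL1 at 204 CPM, a log2 difference of -0.43 ± 0.19 (SE). Tjp1, the scaffold ZO-1, had a log2 difference of -0.01 ± 0.20 (SE), with a 95% interval from -0.43 to 0.40.

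The cytokine genes had low levels. Tnf was at 0.05 to 0.75 CPM in EW+HMOs libraries and at 0 to 1.24 CPM in EW+2'-FL libraries, and its log2 difference was -0.08 ± 0.98 (SE). Il1b was at 0.40 to 2.77 CPM in EW+HMOs libraries and at 0.26 to 1.85 CPM in EW+2'-FL libraries, a log2 difference of 1.06 ± 0.84 (SE, edgeR adjusted p = 0.68). Il6, with 0 to 13 counts in EW+HMOs libraries and 0 to 8 in EW+2'-FL libraries, was too low to test. Of 18 genes on the list of cytokines and NF-kB targets none was counted in either direction.

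Antigen presentation genes had higher and closely grouped values in EW+HMOs libraries. Of 10 MHC class II genes 6 were higher in EW+HMOs at an unadjusted p under 0.05 and 3 did not overlap, with a median log2 difference of 0.75. H2-Ab1, the beta chain of the I-A molecule, was at 110, 118, 107, 118 and 97.2 CPM in EW+HMOs libraries and at 33.2, 56.7, 47.7, 79.7 and 83.6 CPM in EW+2'-FL libraries. All EW+HMOs libraries stood above all EW+2'-FL libraries, and the log2 difference was 0.87 ± 0.24 (SE, edgeR adjusted p = 0.26). H2-Eb1, the beta chain of I-E, was at 83.2 to 111 CPM in EW+HMOs libraries and at 26.5 to 81.6 CPM in EW+2'-FL libraries, a log2 difference of 0.91 ± 0.27 (SE). Cd74, the invariant chain that guides class II to the endosome, was at 348, 370, 343, 387 and 294 CPM in EW+HMOs libraries and at 97.2, 142, 129, 284 and 284 CPM in EW+2'-FL libraries. These 3 genes separated the groups fully, with FL4 and FL5 the nearest to the EW+HMOs values. DESeq2 called H2-Ab1 alone of the 10.

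MHC class I genes had smaller differences. All 18 had positive log2 differences, with a median of 0.30, and 4 were higher at an unadjusted p under 0.05. Tap2, a subunit of the peptide transporter, was at 61.0, 60.6, 61.0, 59.0 and 65.7 CPM in EW+HMOs libraries and at 34.3, 38.9, 38.2, 53.4 and 56.3 CPM in EW+2'-FL libraries, without overlap. Of 30 interferon-induced genes 29 had positive log2 differences, with a median of 0.56, but 2 were counted at that threshold. One of these was Gbp4, a guanylate-binding GTPase, at 15.7 to 19.4 CPM in EW+HMOs libraries and 5.21 to 15.1 CPM in EW+2'-FL libraries. Irf7, the interferon regulator, averaged 170 ± 20.3 CPM in EW+HMOs libraries and 115 ± 42.2 CPM in EW+2'-FL libraries (SD, n = 5 each). The interferon list's mean log2 CPM was 4.45 to 4.82 in EW+HMOs libraries and 2.72, 3.51, 3.76, 4.68 and 4.79 in EW+2'-FL libraries. Without FL1 its median log2 difference was 0.33.

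Myeloid markers had higher values beside the MHC class II genes. Of 20 macrophage, dendritic and myeloid genes 9 were higher and 1 lower in EW+HMOs at an unadjusted p under 0.05, with a median of 0.48. The list's mean log2 CPM was 3.17 to 3.68 in EW+HMOs libraries and 2.35 to 3.50 in EW+2'-FL libraries, and its part in the class II values was not tested. C1qc, a complement subunit made by macrophages, was at 32.0, 36.4, 34.1, 39.9 and 31.5 CPM in EW+HMOs libraries and at 23.1, 21.6, 13.3, 30.4 and 29.2 CPM in EW+2'-FL libraries. The groups did not overlap, and the log2 difference was 0.57 ± 0.16 (SE, edgeR adjusted p = 0.26). Cd163, the haptoglobin-haemoglobin scavenger receptor of tissue macrophages, went the other way. It was at 4.31, 4.14, 5.86, 4.74 and 3.33 CPM in EW+HMOs libraries and at 7.30, 23.8, 7.81, 8.05 and 6.24 CPM in EW+2'-FL libraries, also without overlap. Its log2 difference was -1.25 ± 0.35 (SE, edgeR adjusted p = 0.26).

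Lymphocyte genes were less uniform. Of 25 T cell and intraepithelial lymphocyte genes 22 had positive log2 differences, with a median of 0.76, yet 2 were counted at an unadjusted p under 0.05. Cd4, the helper T cell coreceptor, was at 9.50, 7.85, 8.56, 7.83 and 5.55 CPM in EW+HMOs libraries and at 2.88, 3.60, 2.38, 6.34 and 7.29 CPM in EW+2'-FL libraries. Without FL1 the T cell median was 0.48. Of 14 B cell genes 0 were higher and 3 lower, with a median of -0.22, which was 0.76 without FL2.

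**Figure D5:**
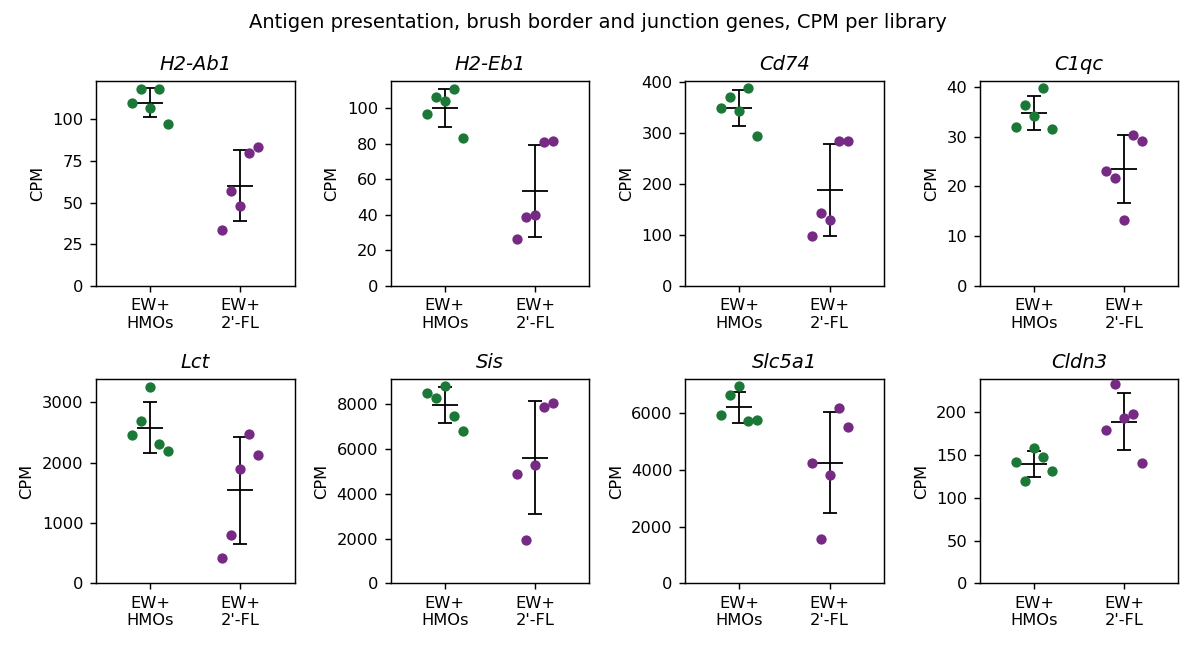
Each panel is 1 gene and each point 1 library in CPM, with EW+HMOs libraries (green) left of EW+2'-FL libraries (purple); black bars are the mean ± SD of 5 libraries. H2-Ab1, H2-Eb1, Cd74 and C1qc do not overlap between the groups. Lct, Sis and Slc5a1 have 2 EW+2'-FL libraries within or just below the EW+HMOs range, and Cldn3 is lower in EW+HMOs apart from an overlap with FL5.

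The clock, glucocorticoid-induced and heat-shock lists had negative medians, which were nearer to 0 without single EW+2'-FL libraries. Of 15 circadian clock genes 0 were higher and 4 lower at an unadjusted p under 0.05, with a median of -0.28, which was 0.0011 without FL1. Clock, the activator of the oscillator, was at 59.4 to 69.5 CPM in EW+HMOs libraries and at 51.0 to 83.9 CPM in 4 EW+2'-FL libraries, with FL1 at 171 CPM. Cry1, a repressor of the oscillator, averaged 24.9 ± 5.17 CPM in EW+HMOs libraries and 34.2 ± 10.2 CPM in EW+2'-FL libraries (SD, n = 5 each). Of 16 glucocorticoid-induced genes 0 were higher and 5 lower, with a median of -0.45, which was -0.12 without FL1. Tsc22d3, the glucocorticoid-induced leucine zipper, was at 68.2, 110, 129, 170 and 172 CPM in EW+HMOs libraries and at 292, 187, 143, 207 and 149 CPM in EW+2'-FL libraries. Mt2, a metallothionein, was at 421, 148, 48.3, 93.2 and 214 CPM in EW+HMOs libraries and at 412, 1260, 613, 272 and 421 CPM in EW+2'-FL libraries, a log2 difference of -1.69 ± 0.54 (SE, edgeR adjusted p = 0.30). The mean log2 CPM of the glucocorticoid list was 5.03 to 5.38 in EW+HMOs libraries, 5.31 to 5.45 in FL2 to FL5 and 6.34 in FL1. Of 18 genes of the unfolded protein and integrated stress response 15 had negative log2 differences, with a median of -0.22, and 1 was higher and 1 lower. Of 20 immediate early genes 9 had positive and 11 negative log2 differences, with a median of -0.08, and 0 were higher and 1 lower. Of 16 hypoxia-induced genes 8 were positive and 8 negative. Of 7 genes of the Sprr2a and epithelial stress list 5 were positive, with a median of 0.76, and none was counted in either direction.

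All 14 heat-shock genes had negative log2 differences, with a median of -0.49, and 4 were lower at an unadjusted p under 0.05. Without FL2 the median was -0.18. Hspa1b, an inducible HSP70, was at 2.32, 3.12, 2.52, 3.06 and 4.38 CPM in EW+HMOs libraries and at 1.81, 129, 7.12, 53.0 and 2.98 CPM in EW+2'-FL libraries. FL2 and FL4 were high while FL1 and FL5 lay at EW+HMOs levels. Hsph1, the HSP110 cochaperone, was at 14.4 to 23.8 CPM in EW+HMOs libraries and at 11.2, 244, 68.8, 66.8 and 28.7 CPM in EW+2'-FL libraries. Both passed the test between the pairs, with a value of -11.74 for Hspa1b and -5.91 for Hsph1 (edgeR adjusted p = 0.031 and 0.041). Hspa1b was at 2.56, 3.20, 5030, 5.33 and 13.8 CPM in EW+LNnT libraries and at 2.89 to 4.96 CPM in EW libraries. LNnT3 alone held most of that RNA, and it also had the highest EW+LNnT value of Hsph1, at 955 CPM. Without LNnT3 the test between the pairs gave an edgeR adjusted p of 0.051 for Hspa1b and 0.075 for Hsph1, and without LNnT1 and LNnT2 the p was 0.0092 and 0.0065.

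Smooth muscle, enteric neuron and fibroblast lists had negative medians, and the endothelial list had a positive one. Of 12 smooth muscle genes 0 were higher and 2 lower at an unadjusted p under 0.05, with a median of -0.68, which was 0.08 without FL2. Myh11, smooth muscle myosin, was at 205, 152, 218, 205 and 218 CPM in EW+HMOs libraries and at 236, 1270, 298, 184 and 160 CPM in EW+2'-FL libraries. The 12 genes summed to 892 to 1190 CPM in EW+HMOs libraries and 878 to 4600 CPM in EW+2'-FL libraries, and none was at 0. Of 14 enteric neuron and glia genes 6 were lower, with a median of -0.72, which was -0.26 without FL2. Snap25, a synaptic SNARE protein, was at 1.44, 1.42, 2.06, 0.69 and 3.28 CPM in EW+HMOs libraries and at 4.54, 6.41, 5.07, 2.5 and 2.72 CPM in EW+2'-FL libraries. Its log2 difference was -1.26 ± 0.35 (SE, edgeR adjusted p = 0.26). Of 14 fibroblast genes 1 was higher and 4 lower, with a median of -0.12, which was 0.14 without FL2. The groups did not overlap for 2 of the 14, both higher in EW+HMOs libraries. Those lower at an unadjusted p under 0.05 included Grem1, a BMP antagonist of subepithelial fibroblasts, at 7.83 to 11.1 CPM in EW+HMOs libraries, 9.98 to 17.3 CPM in 4 EW+2'-FL libraries and 112 CPM in FL2. Dcn, the matrix proteoglycan decorin, averaged 73.9 ± 6.78 CPM in EW+HMOs libraries and 132 ± 77.4 CPM in EW+2'-FL libraries (SD, n = 5 each). Of 12 endothelial genes 10 had positive log2 differences, with a median of 0.20, and 1 was higher and 1 lower.

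Of 9 adipocyte genes tested 0 were higher and 4 lower in EW+HMOs, with a median of -2.16, which was -1.39 without FL2 and -1.35 without FL3. Fabp4, the adipocyte fatty acid binding protein, was at 12.6, 19.6, 14.4, 17.6 and 21.4 CPM in EW+HMOs libraries and at 34.2, 99.7, 92.6, 35.9 and 17.0 CPM in EW+2'-FL libraries. All but FL5 of these EW+2'-FL libraries stood above all EW+HMOs libraries, and the log2 difference was -1.71 ± 0.40 (SE, edgeR adjusted p = 0.24). Plin4, a lipid droplet protein, was at 2.17 to 4.83 CPM in EW+HMOs libraries and at 2.06, 41.5, 18.4, 5.98 and 2.90 CPM in EW+2'-FL libraries. Adipoq, the adipocyte hormone adiponectin, was at 0, 0, 0.82, 0.39 and 1.36 CPM in EW+HMOs libraries and at 0, 2.61, 12.6, 2.48 and 0.17 CPM in EW+2'-FL libraries. Summed over the tested genes, the adipocyte markers came to 154 to 184 CPM in EW+HMOs libraries and 152 to 335 CPM in EW+2'-FL libraries. Of 17 pancreatic acinar genes 11 were lower at an unadjusted p under 0.05. Their sum was 29.1 to 38.2 CPM in EW+HMOs libraries and 20.6 to 5010 CPM in EW+2'-FL libraries, with the high value in FL5.

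Without regard to these lists, 24 genes were named because their libraries did not overlap and their p was among the smallest, 12 in each direction. The 12 with higher EW+HMOs values included Insig1, described above, and Rab37, Krba1, Skap2, Bfsp1, Il34, Sod3, Commd10, Slc35d2, Armc5 and Elmo3. Rab37, a GTPase of secretory vesicles, was at 9.25, 9.84, 9.35, 10.2 and 8.80 CPM in EW+HMOs libraries and at 5.70, 2.37, 4.13, 6.57 and 6.72 CPM in EW+2'-FL libraries. Its log2 difference was 0.90 ± 0.20 (SE, edgeR adjusted p = 0.23). Skap2, an adaptor of Src family kinases, was at 41.1 to 45.0 CPM in EW+HMOs libraries and 27.1 to 38.8 CPM in EW+2'-FL libraries. Il34, a ligand of the CSF1 receptor of macrophages, was at 10.5, 11.5, 14.7, 11.9 and 11.1 CPM in EW+HMOs libraries and at 5.56, 7.17, 5.59, 10.3 and 6.64 CPM in EW+2'-FL libraries, a log2 difference of 0.75 ± 0.19 (SE, edgeR adjusted p = 0.25). Sod3, the extracellular superoxide dismutase, averaged 14.2 ± 1.66 CPM in EW+HMOs libraries and 8.88 ± 1.04 CPM in EW+2'-FL libraries (SD, n = 5 each). Slc35d2, a Golgi nucleotide-sugar transporter, averaged 20.9 ± 1.86 CPM in EW+HMOs libraries and 11.5 ± 4.56 CPM in EW+2'-FL libraries (SD, n = 5 each). The log2 differences of the others were 0.80 for Krba1, 0.85 for Bfsp1, 0.54 for Commd10, 0.38 for Armc5 and 0.40 for Elmo3.

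The 12 with lower EW+HMOs values were Scara5, Luc7l, Kansl1l, Josd1, Sinhcaf, Dcbld2, Fbxo32, Ypel2, Slc25a42, Mknk2, Ankrd10 and Phtf2. Scara5, a ferritin receptor, was at 1.39, 1.61, 1.32, 1.82 and 2.38 CPM in EW+HMOs libraries and at 6.77, 16.2, 9.77, 4.89 and 2.67 CPM in EW+2'-FL libraries. Its log2 difference was -2.24 ± 0.43 (SE, edgeR adjusted p = 0.15), and it was called without FL5. Fbxo32, the ubiquitin ligase atrogin-1, was at 6.92 to 11.2 CPM in EW+HMOs libraries and at 36.0, 124, 14.2, 12.3 and 12.9 CPM in EW+2'-FL libraries, with FL2 far above the rest. Luc7l, a U1 snRNP-associated splicing factor, was at 50.7, 52.8, 52.0, 50.4 and 54.7 CPM in EW+HMOs libraries and at 88.5, 89.6, 74.1, 59.7 and 60.4 CPM in EW+2'-FL libraries. The EW+HMOs values lay closely together and the EW+2'-FL values did not, and the log2 difference was -0.51 ± 0.11 (SE, edgeR adjusted p = 0.23). Mknk2, a kinase of the initiation factor eIF4E, averaged 98.1 ± 8.14 CPM in EW+HMOs libraries and 132 ± 21.3 CPM in EW+2'-FL libraries (SD, n = 5 each). Sinhcaf, a subunit of the SIN3 histone deacetylase complex, averaged 12 ± 2.07 CPM in EW+HMOs libraries and 19.0 ± 2.22 CPM in EW+2'-FL libraries (SD, n = 5 each). The log2 differences of the others were -0.82 for Kansl1l, -0.64 for Josd1, -1.40 for Dcbld2, -0.97 for Ypel2, -0.73 for Slc25a42, -0.59 for Ankrd10 and -1.03 for Phtf2.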

How the data were processed

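RNA sequencing counts per gene of mouse jejunum were deposited by the authors as a table of whole-number counts, with a second deposited table of FPKM values; per the labels' protocols the libraries were made from poly(A) RNA with strand marking by dUTP and read as paired ends. The tools named in the submitters' processing notes are StringTie 2.1.6, HISAT2 2.2.1 and cutadapt 1.9, and DESeq2 and edgeR without a version, with the build GRCm39, and the counting method is not given in the sources used here. As the main test, the counts of all 25 libraries were fitted in edgeR 4.0.16 (R 4.3.3) with TMM scaling, filterByExpr by group and a robust quasi-likelihood fit with 1 coefficient per group, so that the 5 groups share one estimate of spread. Of 57132 genes 22131 were tested and p-values were adjusted by Benjamini-Hochberg over all of them. Each SE was derived as the absolute log2 difference divided by the square root of the F statistic of the test. Intervals are 95% intervals built from that SE and cover the spread between libraries. List levels are means of log2(CPM + 0.5). Alternatives used DESeq2 1.42.0, limma 3.58.1 on voom values or on log2 of FPKM plus 1 or 0.1, other filters and scalings, a Y-linked covariate, a replicate block and left-out libraries. The group comparison and the gene lists were chosen with earlier results of these data known. Genes were named by a rule: up to 12 per direction, on a list or not, with at least 5 CPM and groups that do not overlap, by p. Then came up to 4 genes of smallest p per list, a panel of 10 intestinal genes, and 6 genes called in EW+LNnT against EW. The scripts were tested on simulated data. Single-gene values of some members of the cholesterol list are not reported here.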

Additional observations from a re-analysis of the deposited data

Results flagged for a closer look

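Among the 94 genes named here and 34 list levels, a single library stood apart from the other 4 of its group 30 times in 256 groups tested. The cutoff flags about 1 in 20 groups of independent, normally distributed values. Values of genes from the same libraries, most of them chosen by p, do not meet that condition. The rate is therefore no yardstick for the 30. In the EW+HMOs group, HMOs3 was lowest in CPM for Mvd (6.45), Sqle (23.1) and Commd10 (17.1). HMOs5 was highest for Scd1 (4.90 CPM) and lowest for Fcer1g (5.93 CPM), for the mean log2 CPM of MHC class II genes (4.08) and for that of fat absorption genes (9.75). HMOs2 was lowest for Myh11 (152 CPM), HMOs1 highest for Armc5 (39.4 CPM) and HMOs4 highest for the mean log2 CPM of fibroblast genes (6). In the EW+2'-FL group, 10 of the 30 were FL2 and 7 were FL1. In CPM, FL2 was the highest EW+2'-FL library for Cd163 (23.8), Hsph1 (244), Grem1 (112), Myh11 (1270), Fbxo32 (124) and Phtf2 (11.8), and the lowest for Slc6a20a (88.7) and Fcgbp (897). FL2 was also highest for the mean log2 CPM of smooth muscle (8.09) and of fibroblast genes (6.91). FL1 was highest in CPM for Stard4 (335), Ocln (204), Clock (171), Clk1 (335) and Rab40c (45.0), highest in mean log2 CPM for glucocorticoid-induced genes (6.34), and lowest for goblet cell genes (5.20). FL3 was highest for Scd1 (167 CPM) and Adipoq (12.6 CPM), and FL5 for pancreatic acinar genes (mean log2 CPM of 7.79).

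The log2 difference EW+HMOs minus EW+2'-FL, less the log2 difference EW+LNnT minus EW, passed the edgeR test for 33 of the 94 named genes. Over all 22131 genes the shares that passed were 0.258% with a positive and 0.587% with a negative value. Most named genes were chosen by p or lack of overlap within these pairs, so those shares are no yardstick for the 33. Positive values were found for Fdft1 (2.72), Insig1 (2.27), Hmgcs1 (2.60), Mvd (1.98), Sqle (2.83), Idi1 (2.26), Fdps (2.08), Lss (1.80), Cyp51 (2.12) and Nsdhl (1.39), all on the cholesterol list. Outside it they were found for Rab37 (1.31), Krba1 (1.38), Skap2 (0.67), Bfsp1 (1.46), Sod3 (1.28), Commd10 (1.12) and Armc5 (0.64). Negative values were found for the clock genes Clock (-1.33), Cry1 (-1.36) and Csnk1e (-1.20) and for the heat-shock genes Hspa1b (-11.74) and Hsph1 (-5.91). They were also found for Luc7l (-0.87), Kansl1l (-1.37), Josd1 (-1.18), Sinhcaf (-1.32), Ypel2 (-1.99), Mknk2 (-0.88), Ankrd10 (-1.02), Clk1 (-1.53), Clk4 (-1.17), Tra2a (-1.59) and Rab40c (-1.28).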

How the results depend on the processing

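The genes called between EW+HMOs and EW+2'-FL numbered 0, and 0 to 15 when 1 library was left out (0 to 4 higher, 0 to 11 lower). DESeq2 called 169 (42 higher, 127 lower) and voom 1 (lower). The count was 18 without FL1, LNnT1 and LNnT2 (4 higher, 14 lower), 27 without FL1 and FL5 (6 higher, 21 lower) and 16 without the 6 libraries with pancreatic transcripts (9 higher, 7 lower). The test between the pairs gave 187 genes, and 55 to 340 when 1 library was left out. It gave 46 in the 20 early-weaned libraries, 84 with no filter beyond 1 count, 294 with a filter of 1 CPM, 751 by DESeq2, 512 by voom, 107 with the Y-linked covariate, 794 without FL1, LNnT1 and LNnT2, 77 without FL1 and FL2, and 235 without LNnT1 and LNnT2. With the replicate block 0 genes were called between the groups. The numbers do not pair the libraries: correlations of same-numbered deviations ran from -0.17 to 0.096, and 0 of 5 exceeded 0.1. The cholesterol median ranged from 0.61 to 0.86 when 1 library was left out. Of the 94 named genes, 4 turned direction, all with differences near 0. Stard4 was 0.10 with voom, 0.31 without FL1, LNnT1 and LNnT2, 0.39 without FL1 and FL5, 0.31 in the 9 libraries alone without FL1 and 0.14 without FL1 and FL2, and -0.27 to 0.31 with 1 library left out. Tjp1 was 0.0015 with the Y-linked covariate, 0.13 without FL1, LNnT1 and LNnT2, 0.18 without FL1 and FL5 and 0.12 in the 9 libraries alone without FL1, and -0.18 to 0.12 with 1 library left out. Tnf was 0.12 on FPKM plus 0.1, 0.16 with the replicate block and 0.077 without the 6 pancreatic libraries, and -0.44 to 0.85 with 1 library left out. Reg3g was -0.16 to 0.29 with 1 library left out. The causes were not tested. With 5 libraries a group and the spread among EW+2'-FL libraries, small differences may have been missed. The smallest detectable difference was not computed.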

Other observations

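A list of 23 splicing regulators (the CLK kinases, SR proteins, Tra2, Luc7-like proteins, Sfpq and cyclins L) was put together after Clk4 and Luc7l had been seen, and so has no test of its own. All 23 were measured, 20 with negative log2 differences for EW+HMOs minus EW+2'-FL, and the median was -0.18, against -0.06 over all genes. At an unadjusted p under 0.05 there were 8 lower, Clk4 and Luc7l among them, and 0 higher. The shares over all genes were 6.66% lower and 4.04% higher, which are no yardstick for a list chosen in this way. Clk1, a kinase of SR proteins, averaged 137 CPM in EW+HMOs libraries and 209 CPM in EW+2'-FL libraries (log2 difference -0.61, edgeR adjusted p = 0.31). It was at 335 CPM in FL1 and at 154 to 206 CPM in FL2 to FL5. Tra2a, an exon-inclusion factor, averaged 51.5 CPM in EW+HMOs libraries and 78.6 CPM in EW+2'-FL libraries (log2 difference -0.61, edgeR adjusted p = 0.32). Its highest EW+2'-FL value was 108 CPM, in FL2. Clk1 and Tra2a had the opposite sign for EW+LNnT minus EW, 0.92 for Clk1 and 0.98 for Tra2a. In the test between those pairs 7 of the 23 passed, all with negative values. The share of 0.587% over all genes is again no yardstick, and Luc7l was among the 7. The 7 also included Clk4, Sfpq, Ccnl1 and Ccnl2, which were among the 38 genes called in EW+LNnT against EW. That difference is part of the test, so the passing of these genes is no separate result.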
